A study of Mus musculus with 50 samples.

Results

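The imprinted growth genes described here were 10 genes that are read mainly from 1 parental copy and that act on growth: Igf2, Igf2r, Grb10, H19, Meg3, Dlk1, Peg3, Plagl1, Cdkn1c and Mest. They were taken by symbol from the gene name column of the per-mouse count files, which list 53700 genes, and were followed through all 6 groups of mice. The libraries were made from the poly-A-tailed part of the RNA of microglia, sorted by flow cytometry as live CD11b-positive cells of intermediate CD45 from the hippocampus of male C57BL/6J mice, 1 library per mouse and 50 mice in all. Control (CTR) mice and mice exposed to early-life stress (ELS, little bedding and nesting material from P2 to P9) were taken at postnatal day 9 (P9) without any injection, or at P200 after an intraperitoneal injection of PBS or of LPS at 1 mg/kg, 3 h before the tissue was taken. The groups held 12 mice (P9-CTR), 13 mice (P9-ELS), 7 mice (P200-CTR-PBS), 6 mice (P200-ELS-PBS), 7 mice (P200-CTR-LPS) and 5 mice (P200-ELS-LPS). Only the adult tissue went through a Percoll step, the P9 mice were not injected, and the ages came from separate cohorts, so that age, isolation protocol and cohort cannot be told apart. The first number of each mouse's label was taken as its nest, which the labels do not define. By this reading the mice came from 5, 4, 5, 5, 5 and 5 nests in the same order of groups. Each mouse is named here by its nest and its own number, as in 18-1.

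Most mammalian genes are read from the maternal and the paternal copy alike, and imprinted genes are the exception, with a parental mark deciding which copy is used. Many of them set the growth of the embryo and are turned down after birth in most organs, while neurons, meninges and the choroid plexus keep some of them on. In brain they are also used outside the growth of the body, among other things in neuron number, maternal behaviour and the exit of progenitors from the cell cycle.

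Library sizes allowed genes of about 1 CPM (counts per 1000000 counted reads) to be followed in nearly every mouse. The lowest, median and highest totals were 13605733, 18745239 and 31020979 counts in P9-CTR, 5152838, 20988125 and 36031616 in P9-ELS, and 13996535, 21896211 and 28616316 in P200-CTR-PBS. They were 18257922, 22304746 and 34990227 in P200-ELS-PBS, 13900212, 20299644 and 42231258 in P200-CTR-LPS, and 15338010, 18474916 and 20923733 in P200-ELS-LPS. Of the mice, 3 had few detected genes, P9-ELS 19-3 with 12482, P200-CTR-PBS 1-1 with 12854 and P9-ELS 19-2 with 15731. A gene was tested where at least 3 mice reached 1 CPM, which kept 16696 genes and 6 of the 10 members: Meg3, Peg3, Cdkn1c, Mest, Grb10 and Igf2r. Igf2, H19, Dlk1 and Plagl1 did not reach that level in 3 mice and are given by their counts.

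The members sat at 7 places in the genome. On chromosome 7 (GRCm39) lay H19 (142129262 to 142133957), Igf2 (142204503 to 142220694), Cdkn1c (143012069 to 143014806) and, far from these, Peg3 (6706882 to 6733468), all on the minus strand. On chromosome 12 lay Dlk1 (109418749 to 109429262) and Meg3 (109506877 to 109538165), both on the plus strand. The others were alone: Mest on chromosome 6 (30723546 to 30752058, plus), Plagl1 on chromosome 10 (12936248 to 13007438, plus), Grb10 on chromosome 11 (11880498 to 11988683, minus) and Igf2r on chromosome 17 (12901293 to 12988614, minus). The strand setting of the counting is not given in the sources used here. Reads of Mest and of Copg2, which overlaps it on the other strand, therefore cannot be told apart where their exons overlap, and the same holds for Cdkn1c and Gm44732, and for Igf2 with Gm33148 and Igf2os. Airn (12960198 to 13079299, plus) runs across a part of Igf2r on the other strand, but shares no exon with it.

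Promoter sequences came from RefSeq (build GRCm38.p6), as windows from 250 bases before to 50 bases after a transcript start, read 5' to 3' on the strand of the gene. They held 15 windows for 8 members, and H19 and Cdkn1c had no entry. The windows of Meg3, Peg3, Grb10 and Igf2r are printed because these are the 4 tested members that were called lower in adult than in P9 microglia in at least 1 condition. Capitals mark TATAAA and its other strand TTTATA, which overlap in Meg3, and GGGGCCCC, which reads the same on both strands, in Peg3.
Meg3 promoter, chr12:109540746-109541045, plus strand: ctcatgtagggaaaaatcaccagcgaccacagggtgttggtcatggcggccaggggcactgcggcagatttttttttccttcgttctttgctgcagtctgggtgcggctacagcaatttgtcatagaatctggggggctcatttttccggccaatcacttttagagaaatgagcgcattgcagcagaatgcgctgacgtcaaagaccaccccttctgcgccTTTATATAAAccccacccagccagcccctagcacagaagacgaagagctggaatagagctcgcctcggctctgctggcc
Peg3 promoter, chr7:6730370-6730669, minus strand: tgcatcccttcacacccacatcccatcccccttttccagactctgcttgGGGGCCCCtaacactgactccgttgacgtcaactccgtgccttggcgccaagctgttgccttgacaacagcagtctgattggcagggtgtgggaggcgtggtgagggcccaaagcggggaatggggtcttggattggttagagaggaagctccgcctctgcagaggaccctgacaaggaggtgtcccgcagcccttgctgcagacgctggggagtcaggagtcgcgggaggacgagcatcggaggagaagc
Grb10 promoter, chr11:12037371-12037670, minus strand: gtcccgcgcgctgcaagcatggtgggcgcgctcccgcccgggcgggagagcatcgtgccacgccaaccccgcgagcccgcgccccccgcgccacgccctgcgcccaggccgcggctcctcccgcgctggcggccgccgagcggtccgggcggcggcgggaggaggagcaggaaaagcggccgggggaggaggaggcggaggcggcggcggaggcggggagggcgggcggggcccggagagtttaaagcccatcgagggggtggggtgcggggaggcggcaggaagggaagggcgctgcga
Igf2r promoter, chr17:12769657-12769956, minus strand: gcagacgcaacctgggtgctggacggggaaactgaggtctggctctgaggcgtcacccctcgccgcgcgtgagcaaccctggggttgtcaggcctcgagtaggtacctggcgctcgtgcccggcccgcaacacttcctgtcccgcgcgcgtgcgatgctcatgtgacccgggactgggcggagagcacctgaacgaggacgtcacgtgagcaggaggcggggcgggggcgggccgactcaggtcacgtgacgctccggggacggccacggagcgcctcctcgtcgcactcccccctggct
GGGGCCCC, letters known to be bound by PLAGL1, occurred in 1.08% of the 32851 windows and, among the members, in Peg3 alone. TATAAA on either strand occurred in 13.6% of windows and, among the members, in Meg3 alone. The letters TTTCCCGC (other strand GCGGGAAA; 1.07% of windows) and TTTGGCGC (other strand GCGCCAAA; 0.514%), both known from E2F binding, were in none of the 15. The 4 windows shared no motif searched and differed in CG content, with 45 CG dinucleotides in Grb10, 34 in Igf2r and 13 each in Peg3 and Meg3. The median window of the table had 7, and 98.4%, 93.0% and 63.7% of windows had no more than Grb10, Igf2r and Peg3. Grb10 and Meg3 each had another window, not printed, with 9 and 1 CG dinucleotides (56.5% and 14.1% of windows had no more). A match describes the letters only.

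The members ran over a wide range of levels, from a few counts in all mice to 60.5 CPM in 1 mouse, and their order was different at the 2 ages. Divided by the length of the exons joined, so that genes can be compared, the mean levels at P9 were 1.51 CPM per kb (SD 0.732) for Meg3, 0.618 (SD 0.269) for Mest, 0.258 (SD 0.157) for Peg3 and 0.165 (SD 0.141) for Cdkn1c. Below them at P9 came Igf2r (0.0912), H19 (0.0858), Grb10 (0.0467), Plagl1 (0.0446), Igf2 (0.00148) and Dlk1 (0.000901). At P200 Cdkn1c was first at 0.677 (SD 0.417), followed by Mest at 0.416 (SD 0.149), Meg3 at 0.132 (SD 0.162), Igf2r at 0.0435 (SD 0.0634) and Peg3 at 0.0261 (SD 0.0460). Plagl1 (0.00802), Grb10 (0.00350) and Igf2 (0.000510) were near 0 there, and H19 and Dlk1 had no count. At P9 only the steps from Meg3 to Mest and from Mest to Peg3, and at P200 only the step from Mest to Meg3, were larger than the SD of both genes, and all other neighbours in the order overlapped.

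**Figure D1:**
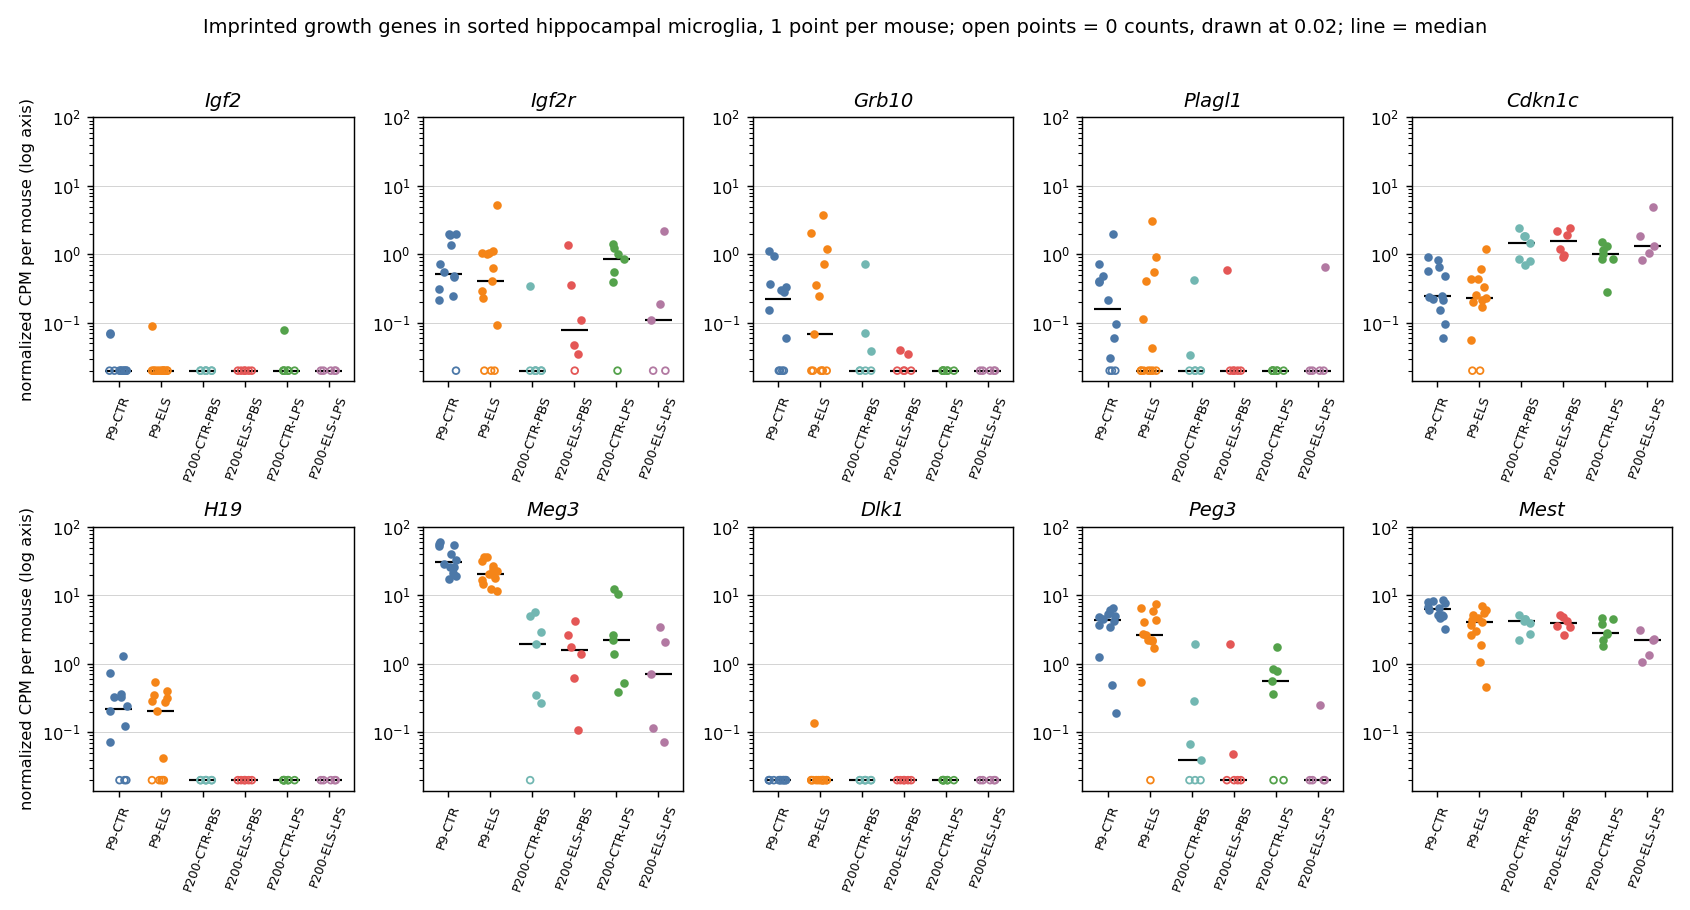
Level of each of the 10 members (normalized CPM, log axis) in every mouse, by group. Each point is 1 mouse, lines are group medians, and open points are mice with no count, drawn at 0.02. Meg3, Peg3 and H19 drop from P9 to P200, Cdkn1c rises and Mest changes little.

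The preparations carried the microglial genes at very high levels at both ages, and also held genes of other cell types at low levels, several of them higher at P9. Group medians were 8439, 9173, 14780, 13750, 8857 and 8681 CPM for P2ry12, 2224, 2258, 8412, 9146, 6565 and 7511 CPM for Tmem119, and 7113, 7196, 9725, 9138, 7083 and 7655 CPM for Cx3cr1, in the order CTR and ELS at P9, CTR and ELS with PBS, and CTR and ELS with LPS. With age Tmem119 was called higher (log2 fold change 2.01, adjusted p 5.63e-12 in CTR; 2.1, adjusted p 2.20e-12 in ELS), and P2ry12 (0.77 and 0.52) and Cx3cr1 (0.47 and 0.46) stayed under 2-fold. In the same order of groups, 7 neuron genes summed to medians of 113.6, 76.0, 6.66, 6.23, 9.44 and 7.85 CPM (2.54 to 161.4 over mice), with Map2 the most abundant at P9 and Snap25 at P200. The 5 immature neuron genes summed to 25.4, 21.1, 0.0341, 0.0440, 0.0974 and 0 CPM (up to 44.3), with Sox11 the most abundant at P9, with Eomes at 0 in P200-ELS-PBS and P200-CTR-LPS and with Dcx, Eomes and Igfbpl1 at 0 in P200-ELS-LPS. All 8 genes of dividing cells fell with age, from 1084 and 930.6 CPM to 13.3 and 16.8 CPM with PBS, and stood at 14.9 and 14.6 CPM with LPS, and Top2a led them at P9.

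Other traces were spread over several cell types. The 7 border macrophage genes, led by Mrc1, summed to 726.1, 733.0, 8.19, 5.92, 5.36 and 4.91 CPM in the same order. Astrocyte genes, led by Slc1a3, summed to 297.2, 248.1, 336.6, 396.1, 575.3 and 532.7 CPM, oligodendrocyte lineage genes to 41.4, 32.0, 48.2, 51.8, 50.5 and 56.6 CPM and endothelial genes, led by Pecam1, to 41.4, 41.8, 52.5, 65.7, 76.7 and 64.2 CPM. Lower still were mural genes (8.95, 3.58, 0.834, 0.890, 1.07 and 0.680 CPM), fibroblast genes (2.53, 1.74, 0.638, 0.279, 0.599 and 0.175 CPM) and genes of choroid plexus and ependyma (4.58, 1.19, 0, 0.132, 2.25 and 0.144 CPM, led by Ttr at P9). Monocyte and neutrophil genes summed to 3.66, 4.86, 6.82, 6.43, 3.86 and 5.16 CPM with Ly6g at 0 in all 50 mice, and erythroid genes to 1.89, 3.00, 0.375, 1.25, 0.357 and 0.702 CPM. Between the ages, of the tested genes 0 of 7 neuron genes were higher and 7 lower in CTR (0 and 5 in ELS), 0 and 3 of 3 immature neuron genes (0 and 3), 1 and 6 of 7 astrocyte genes (1 and 6), 1 and 4 of 7 oligodendrocyte lineage genes (1 and 2), and 0 and 3 of 6 endothelial genes (1 and 3). For 4 mural genes the same counts were 0 and 2 (0 and 2), for 5 fibroblast genes 0 and 3 (0 and 3), for 2 choroid plexus and ependyma genes 0 and 1 (0 and 1), and for 7 border macrophage genes 0 and 7 (0 and 5). They were 1 and 1 (1 and 1) for 2 monocyte and neutrophil genes, 0 and 4 (0 and 4) for 5 erythroid genes and 0 and 8 (0 and 8) for 8 genes of dividing cells. At P200 the astrocyte sums were mostly Slc1a3, whose group means were 120.0, 102.8, 355.9, 386.9, 549.2 and 514.9 CPM. The median log2 fold change of the astrocyte genes with age was -4.77 in CTR and -5.01 in ELS. Pecam1, at means of 28.1, 30.2, 47.6, 51.7, 48.2 and 44.9 CPM, made up most of the endothelial sums, and the endothelial medians were -1.84 and -1.32.

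More imprinted growth genes were called with age than with LPS or with early-life stress, and the same order held for all tested genes. Of these, 26.4% in CTR and 26.2% in ELS were called with age, and 9.62% and 7.86% with LPS. Between ELS and CTR, 0.156% were called at P200 with PBS, and 0.0% at P9 and at P200 with LPS. The adult preparations had far less Meg3 and Peg3 RNA than the P9 ones, had no H19 count, and had more Cdkn1c. Mest changed least, and Igf2 and Dlk1 were close to absent at both ages. In bulk RNA, fewer cells of a type and less RNA per cell cannot be told apart. The mice with PBS served as the adult side of the age comparisons and also as the control side of the LPS comparisons below, so these comparisons share them.

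A gene was called where its adjusted p was under 0.05 and its change exceeded 2-fold in edgeR's quasi-likelihood test over all 16696 genes. In CTR mice 4 of the 6 tested members were called between P9 and P200 with PBS (26.4% of all tested genes were), with Cdkn1c higher (7.98% of all genes) and Meg3, Peg3 and Igf2r lower (18.5% of all genes). In ELS mice 4 of 6 were called as well (26.2% of all tested genes), with Cdkn1c higher (8.68%) and Meg3, Peg3 and Grb10 lower (17.5%). Since the filter lets a gene pass on the strength of its highest group, these counts say little about the members as a set, and each gene is given by itself below. The median log2 fold change of all tested genes was -0.09 in CTR and -0.01 in ELS.

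**Figure D2:**
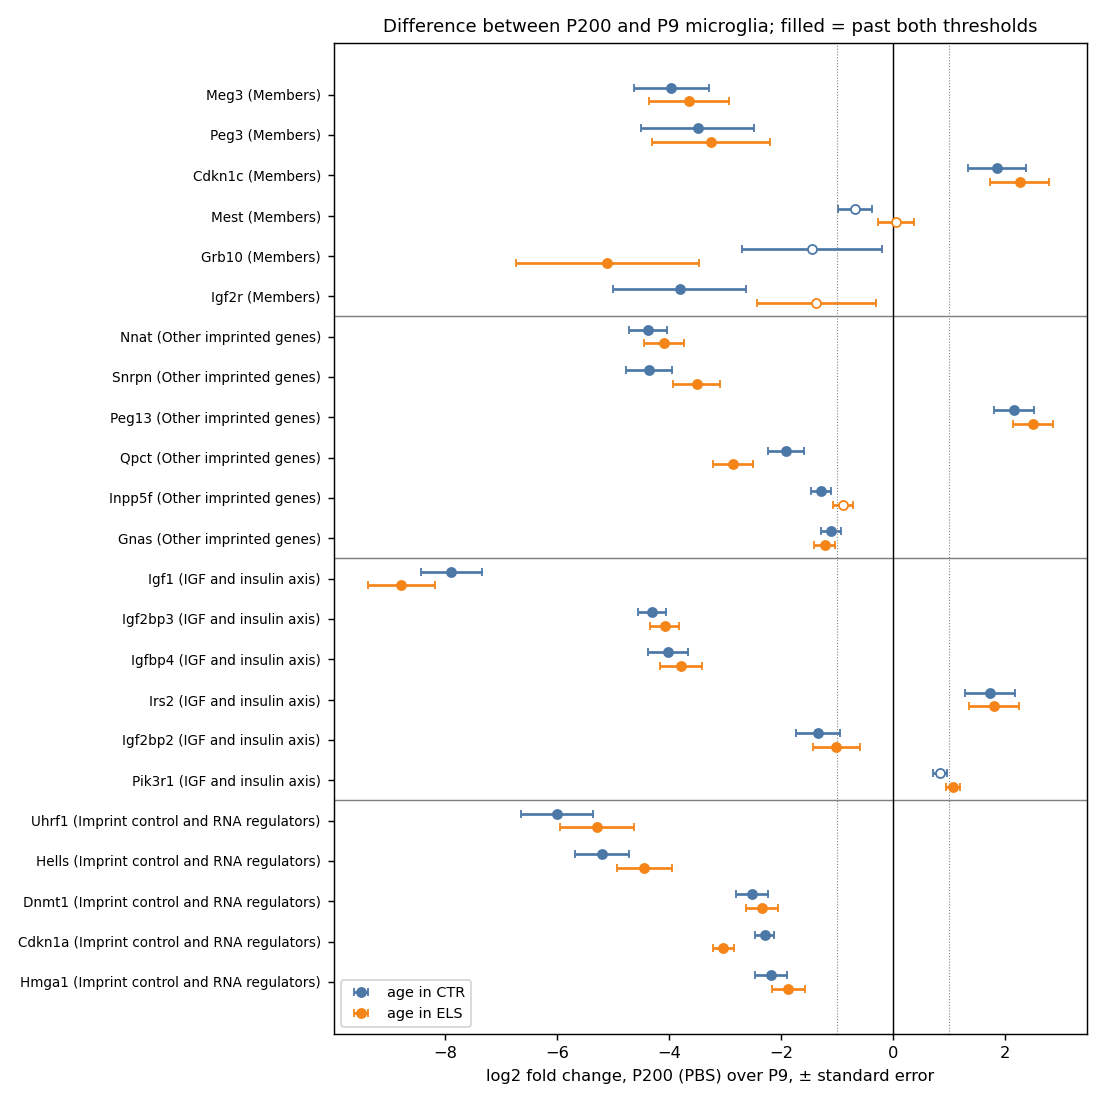
Log2 fold change from P9 to P200 with PBS (horizontal axis; bars, standard error) for the 6 tested members and the named genes of related lists, in CTR (blue) and ELS (orange) mice. Filled points passed both thresholds. Cdkn1c lies to the right and Meg3 and Peg3 to the left in both conditions.

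Igf2 and its receptors come first. Igf2, the imprinted fetal growth factor, was hardly found: 7 counts in 3 of 25 P9 mice and 3 counts in 1 of 25 adult mice, the P200-CTR-LPS mouse 1-3, which gave a P9 to P200 ratio of 2.17 with a 95% counting interval of 0.496 to 13.0. Igf2r, the receptor that takes IGF2 to lysosomes and so ends its action, was low in most P9 mice and mostly absent from adult CTR mice without LPS. It ran from 0 to 2.00 CPM in P9-CTR (median 0.518; above 0 in 11 of 12 mice) and from 0 to 5.27 CPM in P9-ELS (median 0.403; 10 of 13 mice). With PBS only P200-CTR-PBS mouse 18-2 had counts (10 counts, 0.341 CPM), while P200-ELS-PBS ran from 0 to 1.38 CPM with a median of 0.0782 (5 of 6 mice).

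Igf2r therefore fell with age in CTR mice (log2 fold change -3.81, SE 1.19, adjusted p 0.00787), and 8 of 12 P9-CTR mice were above every P200-CTR-PBS mouse. Without mouse 18-2, which leaves its group with no count, the adjusted p was 0.000469. Against the P9-CTR mice of nests numbered under 20 it was -3.44 and no longer called (adjusted p 0.0563), and against those of nests over 50 it was -4.02 (adjusted p 0.00656). In ELS mice the ranges overlapped and the change was -1.37 (SE 1.06, adjusted p 0.313), with -2.88 (adjusted p 0.0620) without P200-ELS-PBS mouse 2-1 and -0.59 (adjusted p 0.665) without P9-ELS mouse 19-2, which held 104 of the 257 counts of its group. The 2 age changes of Igf2r were not called different in the interaction term of edgeR's model (difference 2.44, SE 1.44, adjusted p 0.575).

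Grb10 encodes an adaptor that binds the insulin and IGF1 receptors and dampens their signal, and its RNA was scarce in a part of the P9 mice and almost gone in adults. It ran from 0 to 1.14 CPM in P9-CTR (median 0.219; above 0 in 8 of 12 mice, 101 counts) and from 0 to 3.73 CPM in P9-ELS (median 0.0680; 7 of 13 mice, 190 counts). With PBS there were 12 counts in P200-CTR-PBS, 10 of them in mouse 15-1 (0.712 CPM), and 2 counts in P200-ELS-PBS. The ELS change was called (log2 fold change -5.10, SE 1.64, adjusted p 0.0109), and the plain ratio of P9-ELS to P200-ELS-PBS was 49.3 with a 95% counting interval of 13.5 to 409.9. It was not called by limma voom (-2.35, adjusted p 0.0712), and without P9-ELS mouse 55-1 it was -4.40 (adjusted p 0.0213). In CTR mice the change was -1.45 (SE 1.25, adjusted p 0.367), and it was called only without P200-CTR-PBS mouse 15-1 (-3.84, adjusted p 0.0347). The age changes of Grb10 in CTR and ELS were not called different in the interaction (difference -3.65, SE 1.88, adjusted p 0.506), and Grb10 fell under the filter when the P9 mice of either nest series were used alone.

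Of the 2 imprinted noncoding RNAs, H19 restrains fetal growth and carries Mir675. It was present in small amounts in the P9 preparations and absent from all adult ones, and which cells held it was not tested. It had 77 counts in 9 of 12 P9-CTR mice (0 to 1.3 CPM, median 0.221), 49 counts in 8 of 13 P9-ELS mice (0 to 0.544 CPM, median 0.205) and none in the 25 adult mice. Against a floor of 3 counts over the adult group, H19 was at least 14.1-fold lower in P200-CTR-PBS and at least 8.47-fold lower in P200-ELS-PBS, counting error only. When no filter was applied, so that H19 entered edgeR's quasi-likelihood test, H19 was called with age, at an adjusted p of 0.00217 in CTR mice and 0.00740 in ELS mice.

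Meg3, the maternally read noncoding RNA of the Dlk1 region, was the most abundant member at P9 and showed the clearest separation of ages. Its levels ran from 17.07 to 60.5 CPM in P9-CTR (median 31.1) and from 11.5 to 36.7 CPM in P9-ELS (median 20.7). With PBS they ran from 0 to 5.70 CPM in P200-CTR-PBS (median 1.97) and from 0.107 to 4.29 CPM in P200-ELS-PBS (median 1.59). All 7 and all 6 adult mice lay below every P9 mouse of their condition. The log2 fold change was -3.96 (SE 0.67, adjusted p 3.66e-06) in CTR and -3.64 (SE 0.71, adjusted p 3.84e-05) in ELS. Against P9 nests under 20 and over 50 taken apart it was -4.35 (adjusted p 0.000177) and -3.58 (adjusted p 0.000205) in CTR, and -3.43 (adjusted p 0.00213) and -3.79 (adjusted p 0.000285) in ELS. By limma voom it was larger, -5.31 and -4.25. Dlk1, the paternally read membrane protein of the same region, had 2 counts in 1 P9-ELS mouse (0.136 CPM) and none in the other 49.

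Rian, a noncoding RNA that lies after Meg3 on the same strand and was named here after its values were seen, fell alongside it. It ran from 2.86 to 15.0 CPM in P9-CTR (median 6.62) and from 0 to 9.90 CPM in P9-ELS (median 5.24), and had medians of 0.318 CPM in P200-CTR-PBS and 0.117 CPM in P200-ELS-PBS. The change was -3.67 (SE 0.85, adjusted p 0.000420) in CTR and -5.31 (SE 1.04, adjusted p 4.02e-05) in ELS by edgeR's quasi-likelihood test.

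Peg3 and Plagl1 encode zinc finger proteins. Peg3, paternally read and known from maternal behaviour and the growth of the young, ran from 0.191 to 6.48 CPM in P9-CTR (median 4.34) and from 0 to 7.44 CPM in P9-ELS (median 2.61; above 0 in 12 of 13 mice). With PBS its medians were 0.0397 CPM in P200-CTR-PBS (above 0 in 4 of 7 mice) and 0 in P200-ELS-PBS (2 of 6 mice), but mice 18-1 and 17-1 had 1.92 and 1.97 CPM, next to 0.285 and 0.0479 CPM in the next highest mice. Of the P9 mice, 9 of 12 CTR and 10 of 13 ELS mice were above every adult PBS mouse of their condition.

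The Peg3 change was -3.49 (SE 1.01, adjusted p 0.00423) in CTR and -3.25 (SE 1.06, adjusted p 0.0111) in ELS. Without P200-CTR-PBS mouse 18-1 it was -5.88 (adjusted p 8.63e-05). Without P200-ELS-PBS mouse 17-1, which leaves 1 count in its group, the adjusted p was 1.64e-05. Limma voom gave -5.0 and -5.55, and counts summed per nest gave -3.84 (adjusted p 0.0167) in ELS. Against P9 nests under 20 and over 50 taken apart it was -3.92 (adjusted p 0.0179) and -3.08 (adjusted p 0.0273) in CTR; in ELS it was -3.14, no longer called (adjusted p 0.0544), and -3.34 (adjusted p 0.0270). Usp29, which starts beside Peg3 on the other strand and was named after its values were seen, had medians of 0.781 CPM in P9-CTR and 0 in P200-CTR-PBS (counts in 3 of 7 mice), a change of -2.25 (adjusted p 0.0706). In ELS it had a median of 0.346 CPM at P9 (counts in 10 of 13 mice) and no count in the 6 adult mice with PBS (adjusted p 0.000192).

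Plagl1, a paternally read zinc finger gene that controls a network of imprinted genes, had counts in 9 of 12 P9-CTR mice (0 to 1.98 CPM, median 0.157; 119 counts) and 6 of 13 P9-ELS mice (median 0; 116 counts, 77 of them in mouse 55-3 at 3.11 CPM). In adults with PBS there were 7 counts in 2 P200-CTR-PBS mice and 21 counts in 1 P200-ELS-PBS mouse. The ratio of P9 to P200 was 9.35 in CTR (95% counting interval 4.40 to 23.8) and 2.87 in ELS (1.79 to 4.8), and unfiltered edgeR quasi-likelihood tests gave adjusted p of 0.214 and 0.379. These intervals hold counting error only, and a large share of the counts sat in a few mice.

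The neuron genes moved with Meg3 and Peg3 between the ages, as their sums above show, and the part they had in these changes was not tested. Within groups, the deviations of Meg3 from its group mean over the 50 mice followed those of Snhg11 (r 0.725), Syt1 (r 0.647) and Mmp11 (r 0.601) most closely among well-measured genes. Peg3 followed Mrrf (r 0.652), 4933412A08Rik (r 0.604) and Enpp5 (r 0.595). Syt1 is itself among the 7 neuron genes. These correlations rest on libraries that differ in depth and are given as a description.

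**Figure D3:**
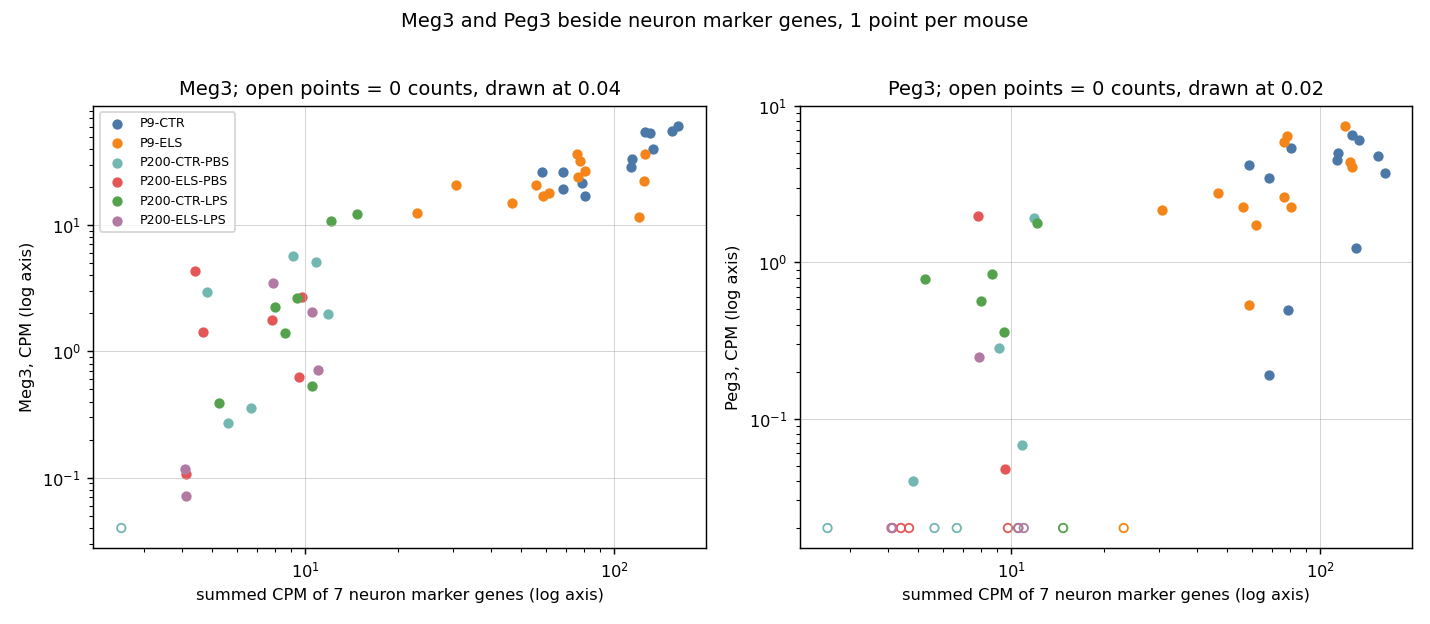
Meg3 (left) and Peg3 (right) in each mouse (vertical, normalized CPM) against the summed CPM of 7 neuron genes (horizontal), both on log axes, coloured by group. Open points had no count and are drawn at 0.04 (Meg3) and 0.02 (Peg3). P9 mice lie to the right of all adult mice. Most P9 mice also lie above the adult ones, with slight vertical overlap in Meg3 and more in Peg3.

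Cdkn1c, which encodes an inhibitor of cyclin-dependent kinases and holds cells out of division, was the only member to rise with age. It ran from 0.0609 to 0.924 CPM in P9-CTR (median 0.243) and from 0 to 1.22 CPM in P9-ELS (median 0.230; above 0 in 11 of 13 mice). These P9 levels were near the floor, with median counts of 7 and 5 per mouse (102 and 97 counts over the groups). With PBS it ran from 0.709 to 2.44 CPM in P200-CTR-PBS (median 1.48) and from 0.910 to 2.39 CPM in P200-ELS-PBS (median 1.56). Of the adult mice 4 of 7 CTR and 3 of 6 ELS mice were above every P9 mouse of their condition, and 10 of 12 and 12 of 13 P9 mice were below every adult one. The log2 fold change was 1.85 (SE 0.52, adjusted p 0.00327) in CTR and 2.26 (SE 0.53, adjusted p 0.000458) in ELS. Against P9 nests under 20 and over 50 taken apart it was 2.01 (adjusted p 0.0201) and 1.75 (adjusted p 0.0113) in CTR, and 2.17 (adjusted p 0.00858) and 2.35 (adjusted p 0.00135) in ELS. No left-out mouse ended either call.

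The rise of Cdkn1c went the other way from Cdkn1a, the related inhibitor, and from the genes of dividing cells. Cdkn1a fell with age from a mean of 95.8 to 19.6 CPM in CTR (log2 fold change -2.29, SE 0.17, adjusted p 1.02e-15) and from 111.6 to 13.7 CPM in ELS (-3.03). Cdkn1b passed neither threshold (0.08, adjusted p 0.817 in CTR; 0.23, adjusted p 0.458 in ELS). Within groups Cdkn1c followed Elavl1 (r 0.658), Cggbp1 (r 0.645) and Khdrbs1 (r 0.638). Kcnq1ot1, the noncoding RNA of the imprinted domain that holds Cdkn1c, named after its values were seen, did not pass the thresholds (-0.35, adjusted p 0.310 in CTR; 0.13, adjusted p 0.752 in ELS).

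**Figure D4:**
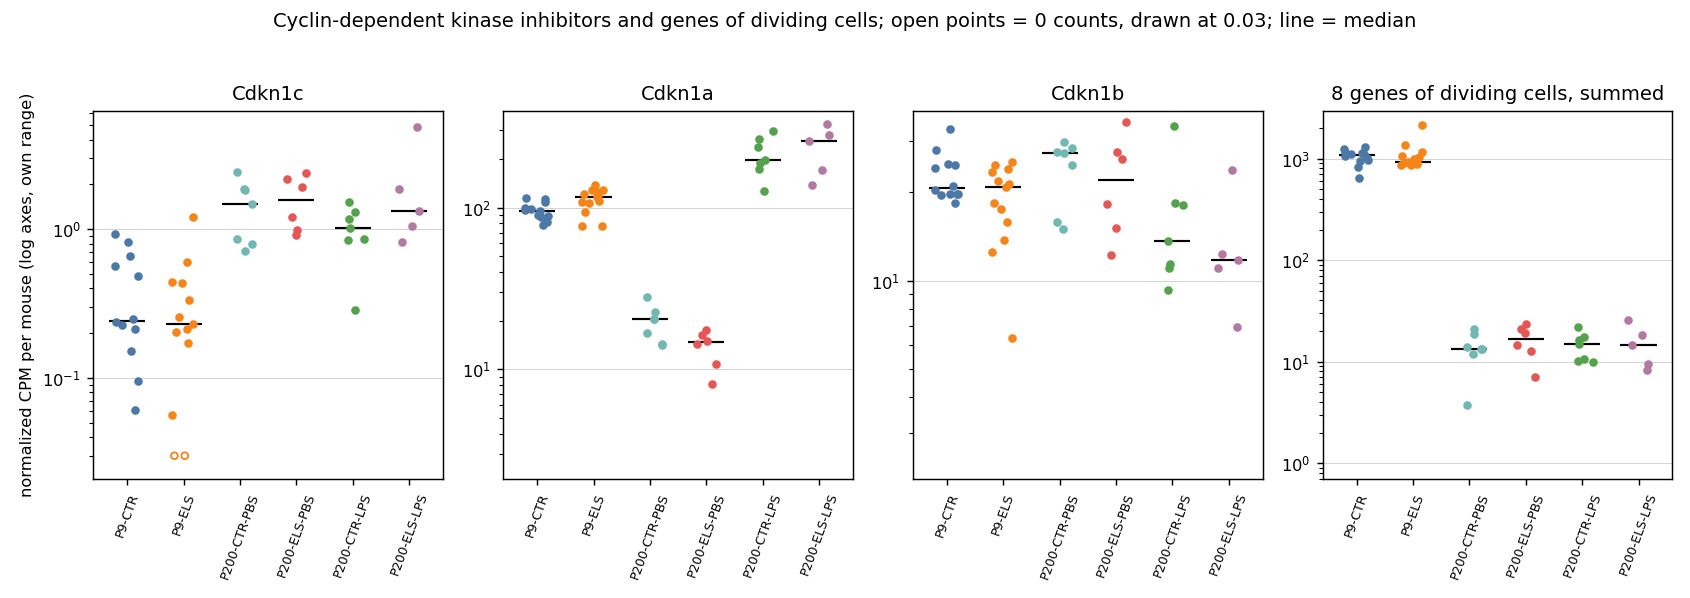
Cdkn1c, Cdkn1a, Cdkn1b and the sum of 8 genes of dividing cells (normalized CPM, log axes with their own ranges) in every mouse by group. Points are mice, lines are medians, and open points had no count and are drawn at 0.03. Cdkn1c is higher at P200, dividing-cell genes are lower, and Cdkn1a is low with PBS and high with LPS.

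Mest, a paternally read gene for a hydrolase-like protein that promotes growth, had the smallest age change of the tested members. It ran from 3.20 to 8.57 CPM in P9-CTR (median 6.40), from 0.456 to 6.94 CPM in P9-ELS (median 4.12), from 2.22 to 5.24 CPM in P200-CTR-PBS (median 4.2) and from 2.64 to 5.1 CPM in P200-ELS-PBS (median 3.90). The change was -0.68 (SE 0.31, adjusted p 0.0736) in CTR, where 7 of 12 P9 mice were above every adult mouse, and 0.06 (SE 0.32, adjusted p 0.902) in ELS. Against P9 nests under 20 and over 50 it was -0.81 and -0.56 in CTR and 0.18 and -0.04 in ELS. Copg2, which overlaps Mest on the other strand, changed by -0.60 in CTR (adjusted p 0.00164) and by -0.32 in ELS, below the 2-fold threshold. Among the genes that Mest followed within groups were Cars (r 0.715) and Prr14l (r 0.708).

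No member's age change was called different between CTR and ELS mice. The interaction called 0 of 6 members (0.0299% of all tested genes). The likelihood-ratio test, DESeq2 and limma voom also called 0 members, and 29, 20 and 0 of all 16696 tested genes. At an unadjusted p under 0.05 stood 0 members and 1712 of all 16696 tested genes. The differences not yet given were 0.32 for Meg3 (SE 0.82, adjusted p 0.944), 0.24 for Peg3 (adjusted p 0.982), 0.41 for Cdkn1c (adjusted p 0.909) and 0.73 for Mest (adjusted p 0.581). The Peg3 difference was 2.63 without P200-CTR-PBS mouse 18-1. It turned negative without P200-ELS-PBS mouse 17-1, which leaves 1 count in its group. That of Igf2r was 3.22 and 0.93 without P9-ELS mouse 19-2 and P200-ELS-PBS mouse 2-1 (adjusted p 0.257 without P200-CTR-PBS mouse 18-2), and that of Grb10 was -1.26 without P200-CTR-PBS mouse 15-1 and -2.95 without P9-ELS mouse 55-1.

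Genes related to the members were set beside them, as lists chosen with knowledge of earlier results of these data. Of 42 tested other imprinted genes, 3 were higher and 12 lower with age in CTR and 3 and 13 in ELS, with median log2 fold changes of -0.55 and -0.35. Of all tested genes, as given above, 7.98% were higher and 18.5% lower in CTR and 8.68% and 17.5% in ELS, and the lists below are to be read beside the same shares. Peg13 rose (2.16, SE 0.36, adjusted p 1.98e-06 in CTR; 2.5 in ELS), and Nnat (-4.37, SE 0.34, adjusted p 1.97e-15; -4.09 in ELS) and Snrpn (-4.36, SE 0.41, adjusted p 1.72e-12; -3.51 in ELS) fell by amounts close to that of Meg3. Nnat went from a mean of 65.1 to 3.15 CPM, Snrpn from 19.0 to 0.942 CPM and Peg13 from 9.96 to 44.4 CPM in CTR mice. Qpct (-1.91 in CTR, -2.86 in ELS), Inpp5f (-1.28 in CTR) and Gnas (-1.22 in ELS) were also lower.

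On the wider IGF and insulin axis the largest named change was in Igf1, a growth factor made by microglia. Of 25 tested genes of this axis 1 was higher and 10 lower in CTR and 2 and 8 in ELS, with medians of -0.54 and -0.25. Igf1 went from a mean of 59.3 to 0.227 CPM in CTR (log2 fold change -7.89, SE 0.54, adjusted p 2.82e-17) and from 71.0 to 0.135 CPM in ELS (-8.78), so that Igf1 and Igf2 were both near 0 in adult microglia while only Igf1 had been high at P9. Igf2bp3 (-4.30 and -4.08) and Igfbp4 (-4.02 and -3.79) were lower in both conditions and Igf2bp2 in CTR (-1.34), whereas Irs2 (1.73 and 1.80) and, in ELS, Pik3r1 (1.07) were higher. Igf1r, the receptor of IGF1 and IGF2, changed by -0.54 (adjusted p 0.0375) in CTR and -0.25 in ELS.

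A list of imprint control and RNA regulator genes, to which the inhibitors Cdkn1a and Cdkn1b had been added, held 21 tested genes. Of these 0 were higher and 8 lower in CTR and 0 and 7 in ELS, with medians of -0.73 and -0.65. Cdkn1a, given above, was among the lower genes in both conditions. Uhrf1 (-6.0 and -5.29), Hells (-5.20 and -4.44), Dnmt1 (-2.52 and -2.34) and Hmga1 (-2.18 and -1.87) were among the lower genes in CTR and ELS. Uhrf1, Hells and Dnmt1 act when DNA is copied, and the genes of dividing cells moved with them; the part of cell division in these changes was not tested.

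No imprinted growth gene was called between ELS and CTR mice at either age. At an unadjusted p under 0.05, Mest was lower in ELS than in CTR mice at P9, with wide overlap. In adult mice, by the same measure, the fitted value of Igf2r was higher in ELS without LPS, and those of Peg3 and Meg3 were lower in ELS with LPS. None of these differences passed the adjusted threshold.

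At P9, 0 of 6 tested members were called (0.0% of all tested genes). The likelihood-ratio test, DESeq2 and limma voom called 0 members, and 1, 0 and 0 of all 16696 tested genes. An unadjusted p under 0.05 was found for 1 member and for 914 of all 16696 tested genes. That member was Mest (log2 fold change -0.71, SE 0.26, p 0.00789, adjusted p 0.875 in edgeR's quasi-likelihood test): 5 of 13 ELS mice were below every CTR mouse and 4 of 12 CTR mice above every ELS mouse. Its change was -0.97 (adjusted p 0.537) among nests under 20 and -0.50 (adjusted p 1.0) among nests over 50. The lowest nest was ELS nest 19 (0.456 to 5.17 CPM, mean 2.23), which holds the 2 P9 mice with few detected genes, and without the 3 such mice of the series the change was -0.52 (adjusted p 0.869).

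Meg3 differed by -0.69 (SE 0.46, p 0.141, adjusted p 0.963) at P9, with 4 of 13 ELS mice below every CTR mouse and 5 of 12 CTR mice above every ELS mouse. The difference was -1.29 (adjusted p 0.725) among nests under 20 and -0.16 (adjusted p 1.0) among nests over 50. The highest values came from CTR nest 17, whose 3 mice ran from 54.7 to 60.5 CPM (mean 56.9), against means of 34.4, 27.1, 18 and 39.8 CPM in CTR nests 15, 51, 52 and 58 and of 19.0, 20.14, 26.0 and 23.8 CPM in ELS nests 9, 19, 53 and 55. Peg3 (-0.21; -0.75 and 0.29 in the lower and higher nest series), Cdkn1c (-0.24; 0.01 and -0.43), Igf2r (0.02; 0.71 and -0.55) and Grb10 (1.08, adjusted p 0.999) were not called. Without mouse 19-2 Igf2r was -0.77, and without mouse 55-1 Grb10 was 0.37. By limma voom Grb10 was -0.14. Its means were 0.607 CPM in CTR and 0.331 CPM in ELS in nests under 20, and 0.0785 and 0.915 CPM in nests over 50. The neuron genes stood at medians of 113.6 CPM in CTR and 76.0 CPM in ELS, with 0 of 7 called between them, and their part in the Meg3 values was not tested. H19 had a P9-CTR to P9-ELS ratio of 1.64 with a 95% counting interval of 1.13 to 2.39, which leaves out the spread between mice. Its direction differed between the nest series. The H19 means were 0.192 CPM in CTR and 0.305 CPM in ELS in nests under 20, and 0.389 and 0.0847 CPM in nests over 50.

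**Figure D5:**
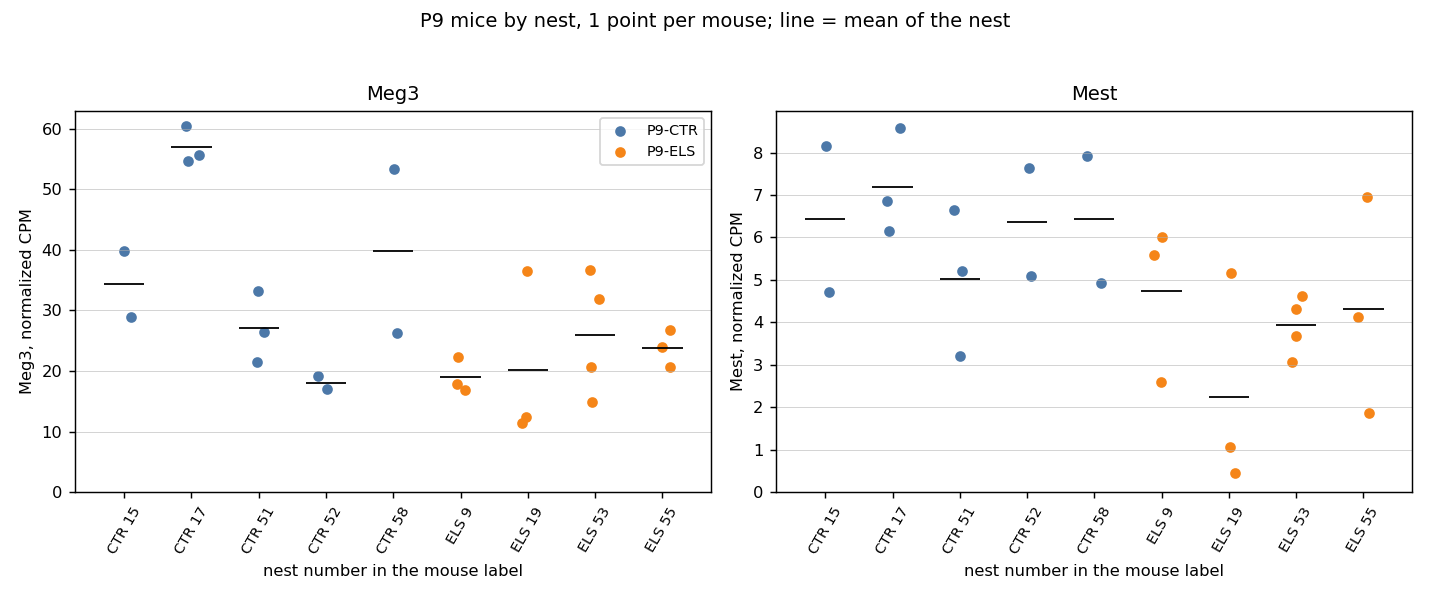
Meg3 and Mest (normalized CPM) in each P9 mouse by nest, CTR nests 15, 17, 51, 52 and 58 and ELS nests 9, 19, 53 and 55. Points are mice and lines are nest means. CTR nest 17 is the highest in Meg3 and ELS nest 19 the lowest in Mest.

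At P200 with PBS, 0 of 6 members were called between ELS and CTR (0.156% of all tested genes). The other 3 tools, in the same order as at P9, called 0 members, and 191, 148 and 0 of all 16696 tested genes. An unadjusted p under 0.05 was found for 1 member and for 1622 of all 16696 tested genes. Igf2r was that member: 5 of 6 ELS mice but 1 of 7 CTR mice had counts (log2 fold change 2.46, SE 1.22, p 0.0496, adjusted p 0.512 by edgeR's quasi-likelihood test). Mouse 2-1 held 49 of the 62 ELS counts, and the change was 0.95 (adjusted p 0.942) without it. Without P200-CTR-PBS mouse 18-2 the adjusted p was 0.129. The other changes were -0.37 (adjusted p 0.940) for Meg3, which was 0.39 by limma voom, 0.17 for Cdkn1c, 0.02 for Mest and 0.03 for Peg3. Peg3 was 2.42 without P200-CTR-PBS mouse 18-1 and turned negative without P200-ELS-PBS mouse 17-1, which leaves 1 count in its group. Grb10, with 2 counts in P200-ELS-PBS, changed by -2.57 (p 0.116, adjusted p 0.667 by edgeR's quasi-likelihood test). It was -0.18 without P200-CTR-PBS mouse 15-1.

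With LPS, 0 of 6 members were called between ELS and CTR (0.0% of all tested genes). The other 3 tools, in the same order, again called 0 members, and 10, 2 and 0 of all 16696 tested genes. An unadjusted p under 0.05 was found for 2 members and for 796 of all 16696 tested genes. Peg3 was at 0, 0, 0, 0 and 0.247 CPM in the 5 P200-ELS-LPS mice and ran from 0 to 1.79 CPM in P200-CTR-LPS (median 0.562), where 5 of 7 mice were above every ELS mouse (log2 fold change -3.48, SE 1.42, p 0.0178, adjusted p 0.863 by edgeR's quasi-likelihood test). Meg3 was at 0.0722, 0.117, 0.713, 2.06 and 3.46 CPM in P200-ELS-LPS and ran from 0.389 to 12.3 CPM in P200-CTR-LPS (median 2.25), with overlap (-1.72, SE 0.77, p 0.0289, adjusted p 0.954). Cdkn1c differed by 0.97 (SE 0.65, adjusted p 1.0), Mest by -0.68 (adjusted p 1.0) and Igf2r by -0.67, and Grb10 had no count in any of the 12 mice with LPS. Without P200-ELS-LPS mouse 11-2 Peg3 had no count left in its group (adjusted p 0.787) and Meg3 was at -2.54, and without mouse 20-1 Cdkn1c was at 0.33 and Igf2r at -3.28.

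After LPS only 1 imprinted growth gene was called, and only in CTR mice. Igf2r was higher in CTR mice given LPS. Grb10 was not called and had no count in any mouse with LPS. Meg3, Peg3, Cdkn1c and Mest were not called in either condition. Cdkn1a, the inhibitor related to Cdkn1c, rose strongly in the same mice.

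In CTR mice LPS called 1 of 6 members (9.62% of all tested genes), Igf2r, which was higher (6.02% of all genes), and none was lower (3.6% of all genes). An unadjusted p under 0.05 was found for 2 members and for 4431 of all 16696 tested genes. Igf2r ran from 0 to 1.39 CPM in P200-CTR-LPS (median 0.866; above 0 in 6 of 7 mice, 110 counts) against 10 counts in 1 of 7 P200-CTR-PBS mice, and 6 of 7 LPS mice were above every PBS mouse (log2 fold change 3.68, SE 1.24, adjusted p 0.0350). The call was lost without any of P200-CTR-PBS mice 1-1 (3.49, adjusted p 0.0627), 5-1 (3.48, 0.0652), 5-2 (3.48, 0.0662), 8-1 (3.52, 0.0618), 15-1 (3.52, 0.0609) or 18-1 (3.49, 0.0654), and without P200-CTR-LPS mice 15-2 (3.48, 0.0564) or 18-3 (3.54, 0.0523). Without P200-CTR-PBS mouse 18-2, which leaves no count in its group, the adjusted p was 0.00228. It was also lost with no filter (3.68, adjusted p 0.0542), with the nest as a block (4.65, adjusted p 0.0762) and with counts summed per nest (3.90, adjusted p 0.0618). Within groups Igf2r followed Bcl2a1a (r 0.589), Ccl9 (r 0.557) and Dnajc24 (r 0.553).

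Grb10 had 12 counts in P200-CTR-PBS and none in P200-CTR-LPS, at least 3.78-fold lower against a floor of 3 counts, counting error only, and it was not called in edgeR's quasi-likelihood test (p 0.0173, adjusted p 0.0910) but by the likelihood-ratio test alone (adjusted p 0.0415). Mouse 15-1 held 10 of the 12 counts, and without it the adjusted p was 0.462. Plagl1 had 7 counts in P200-CTR-PBS and none in P200-CTR-LPS, at least 2.2-fold lower by counting error only, but 6 of the 7 counts were in mouse 15-1 as well. The other changes in CTR were 0.86 (SE 0.65, adjusted p 0.438) for Meg3, 0.89 (adjusted p 0.649) for Peg3, which was 3.28 (adjusted p 0.0503) without P200-CTR-PBS mouse 18-1, -0.49 (adjusted p 0.673) for Cdkn1c, which ran from 0.286 to 1.53 CPM with LPS (median 1.02), and -0.28 (adjusted p 0.679) for Mest, which ran from 1.82 to 4.63 CPM (median 2.79).

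In ELS mice LPS called 0 of 6 members (7.86% of all tested genes, 4.69% higher and 3.17% lower). The likelihood-ratio test, DESeq2 and limma voom called 0 members, and 1594, 1556 and 1424 of all 16696 tested genes. An unadjusted p under 0.05 was found for 1 member and for 4079 of all 16696 tested genes. Mest was at 1.05, 1.36, 2.24, 2.29 and 3.13 CPM in P200-ELS-LPS, and 4 of these 5 mice were below every P200-ELS-PBS mouse (log2 fold change -0.98, SE 0.40, p 0.0180, adjusted p 0.104 in edgeR's quasi-likelihood test). Cdkn1c was at 0.819, 1.05, 1.33, 1.87 and 4.84 CPM (0.31, adjusted p 0.834) and Igf2r at 0, 0, 0.11, 0.185 and 2.17 CPM (0.55, adjusted p 0.841), each with its highest value in mouse 20-1. Without that mouse both turned direction, Cdkn1c to -0.33 and Igf2r to -2.05, and without P200-ELS-PBS mouse 2-1 Igf2r was at 2.06. Meg3 changed by -0.49 (adjusted p 0.753) and Peg3 by -2.62 (adjusted p 0.260). The Peg3 change turned direction (adjusted p 0.514) without P200-ELS-PBS mouse 17-1, which held 49 of the group's 50 counts. It had an adjusted p of 0.0876 without P200-ELS-LPS mouse 11-2. By limma voom it was -0.06 (adjusted p 0.985). Meg3 was at -1.31 without mouse 11-2.

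No member's response to LPS was called different between CTR and ELS mice. The interaction called 0 of 6 members (0.0% of all tested genes). The likelihood-ratio test, DESeq2 and limma voom called 0 members, and 66, 11 and 0 of all 16696 tested genes. At an unadjusted p under 0.05 stood 0 members and 980 of all 16696 tested genes. The differences were -3.50 for Peg3 (SE 1.75, adjusted p 0.852), -3.13 for Igf2r (SE 1.72, adjusted p 0.882), -1.36 for Meg3 (adjusted p 0.946), 0.80 for Cdkn1c (adjusted p 0.972) and -0.70 for Mest (adjusted p 0.95). Single mice moved them far: Peg3 turned positive without P200-ELS-PBS mouse 17-1, which leaves 1 count in its group. It was -5.89 without P200-CTR-PBS mouse 18-1 (adjusted p 0.683 without P200-ELS-LPS mouse 11-2). Igf2r was -5.74 and -1.62 without P200-ELS-LPS mouse 20-1 and P200-ELS-PBS mouse 2-1 (adjusted p 0.359 without P200-CTR-PBS mouse 18-2), Meg3 was -2.17 without mouse 11-2, and Cdkn1c was 0.16 without mouse 20-1.

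Related genes called with LPS are to be read beside 6.02% higher and 3.6% lower of all tested genes in CTR, and 4.69% and 3.17% in ELS. Of 42 other imprinted genes 0 were higher and 2 lower in CTR (Ascl2 and Usp29) and 2 higher and 0 lower in ELS (Dcn and Ndn). Of 25 genes of the IGF and insulin axis 2 were higher (Igfbp6 and Igf2bp3) and 2 lower (Insr and Igf1) in CTR, and 1 higher (Igfbp6) and 1 lower (Insr) in ELS. Insr, the insulin receptor that GRB10 binds, fell in both (-1.14, SE 0.25, adjusted p 0.000660; -1.16, SE 0.29, adjusted p 0.00322). Of the 21 tested genes of the list of regulators with Cdkn1a and Cdkn1b, 3 were higher and 1 lower in CTR and 1 higher and 2 lower in ELS. The 1 higher gene in ELS was Cdkn1a, which was also 1 of the 3 in CTR. Cdkn1a rose to a mean of 212.5 CPM in P200-CTR-LPS (3.44) and 235.2 CPM in P200-ELS-LPS (4.11), Tet1 fell (-2.06 and -1.90), Hells fell in ELS (-2.03, adjusted p 0.0146), and Uhrf1 (1.74) and Plagl2 (1.2) were higher in CTR. Cdkn1b changed by -0.54 and -0.76. No gene of the 3 lists was called between ELS and CTR or in either interaction. Of the cell type markers, LPS in CTR mice called higher 3 of 5 erythroid, 2 of 6 endothelial, 1 of 3 immature neuron and 1 of 7 border macrophage genes. It called lower 1 of 12 microglial genes. In ELS mice 2 of 7 astrocyte genes were higher and 1 of 12 microglial genes lower. The other marker lists had no call with LPS.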

How the data were processed

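The authors sequenced cDNA made from poly-A-tailed RNA of sorted hippocampal microglia of 50 mice, used STAR and GRCm39 for alignment and deposited 1 file of raw counts per gene and mouse (submitters' notes: bcl2fastq 2.20, cutadapt 2.10, HTSeq 0.11.0). The annotation release and strand setting are not given in the sources used here. The files hold 13 P9-ELS mice, 1 more than the series text lists. Mice were grouped by age, condition and treatment from the sample labels, and the part of a mouse's label before its point was taken as its nest. Each mouse is a sample of its own, and none of the 211 pairs compared had counts that matched within sampling noise. Not every pair of mice was compared.

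Counts were normalized with TMM, and genes with at least 1 CPM in at least 3 mice (16696) were fitted in 1 model of the 6 group means with edgeR 4.0.16 (glmQLFit, glmQLFTest). The p-values were adjusted over all tested genes (Benjamini-Hochberg). A call needed an adjusted p under 0.05 together with a log2 fold change beyond 1 in size. Printed CPM values are TMM-normalized. SE is the standard error of the log2 fold change. Log2 CPM used a prior count of 2. A group with no count was set to a floor of 3 counts over the group, which gives a lower bound. Fitted sizes against such a group, or one left with no count or 1 count by leaving out a mouse, are not given. In pooled counts, a group with 1 to 3 counts is given as a ratio with its 95% counting interval, which treats counts as Poisson. For Grb10, fitted sizes are printed too where a group held as few as 2 counts, and they rest on those counts. The members and the companion and marker lists were chosen with earlier results of these data known. From each companion list, up to 5 called genes with the largest change and a mean log2 CPM of at least 1 were named per comparison. Likeness (Pearson r) was taken over genes with a mean log2 CPM of at least 1, for members with a median count of at least 10 at the age where they are highest. Of the microglia markers, 3 are given by name, chosen after their values were seen, and a few results on other genes are not reported here. The procedure was tested on simulated data.

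Alternatives were the likelihood-ratio test, DESeq2 1.42.0, its size factors in edgeR, no filter, at least 1 CPM in 5 mice, the groups of a comparison alone, limma 3.58.1 voom with the nest as random effect, each mouse left out in turn and, in P200 mice, the nest as a block. Added after the values were seen were leaving out the 3 mice with under 16000 detected genes, each P9 nest series alone, and counts summed per nest. Tables and figures were made with Python 3.11.15, numpy 2.4.6, pandas 2.3.3, scipy 1.17.1, matplotlib 3.10.9 and R 4.3.3.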

Additional observations from a re-analysis of the deposited data

Results flagged for a closer look

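In 26 sets made of 1 member in 1 P200 group, each group was searched for a mouse far from the others, and 12 held such a mouse, each time the highest mouse. Chance marks about 1 in 20 such groups, but this rate does not hold for counts near 0: in 5 of the 12 sets all other mice were at 0, so that any mouse with counts stands out. The P9 groups, of 12 and 13 mice, were larger than the rule covers and were not searched. Igf2 was at 0.0785 CPM in P200-CTR-LPS mouse 1-3 and at 0 in the other 6. Peg3 was at 1.92 CPM in P200-CTR-PBS mouse 18-1 (next mouse 0.285), 1.97 CPM in P200-ELS-PBS mouse 17-1 (next 0.0479) and 0.247 CPM in P200-ELS-LPS mouse 11-2 (next 0). Plagl1 was at 0.427 CPM in P200-CTR-PBS mouse 15-1 (next 0.0341), 0.592 CPM in P200-ELS-PBS mouse 2-1 (next 0) and 0.664 CPM in P200-ELS-LPS mouse 2-2 (next 0). Cdkn1c was at 4.84 CPM in P200-ELS-LPS mouse 20-1 (next 1.87). Grb10 was at 0.712 CPM in P200-CTR-PBS mouse 15-1 (next 0.0709). Igf2r was at 0.341 CPM in P200-CTR-PBS mouse 18-2 (next 0), 1.38 CPM in P200-ELS-PBS mouse 2-1 (next 0.362) and 2.17 CPM in P200-ELS-LPS mouse 20-1 (next 0.185).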

How the results depend on the processing

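Meg3 and Cdkn1c kept their direction and side of the threshold between the ages under every alternative (Meg3 -5.31 to -3.58 in CTR and -4.25 to -3.38 in ELS; Cdkn1c 1.67 to 2.07 and 2.12 to 2.65). With only the P9 nests numbered under 20, and so fewer P9 mice, the number of members called with age in ELS fell from 4 to 2 (Meg3 and Cdkn1c). Grb10 did not pass the filter there, and Peg3, at -3.14, narrowly missed the threshold, as given above. Calls among all tested genes stayed much the same, with 4358 of 16018 genes there and 4368 of 16696 with all P9 mice. For LPS in CTR the number called, 1 (Igf2r), became 2 with the likelihood-ratio test (Grb10 and Igf2r) and 0 with no filter, with the groups compared alone, where Igf2r did not pass the filter, and with counts summed per nest; leaving out 1 mouse in turn gave a lowest of 0 and a highest of 1. The cause of these changes was not tested. No member that was called turned its direction.

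Nest numbers link PBS and LPS mice, and the correlation of their deviations lay between -0.041 and 0.084 over 10 nests. The main test did not pair mice by these numbers, which the labels do not define. With the nest as a block, the number of members called for LPS in CTR was 0, and Igf2r changed by 4.65 (adjusted p 0.0762).

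Depth limits the low members: Igf2, H19, Dlk1, Plagl1 and, at P9, Cdkn1c rest on a few counts per mouse. For Grb10 and Igf2r in adult mice 1 mouse can hold most of the counts. Nestmates were tested as separate mice. Bulk counts do not show which cells of a preparation hold an RNA, and counts of reads do not show which parental copy was read.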
